A study of Rattus norvegicus with 36 samples.

Results

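CG-4 cells, a rat line of oligodendrocyte progenitors, were transfected with a small interfering RNA (siRNA) against QKI and set against untreated cells of the same line. The comparison took the 3 arrays of the QKI siRNA group and the 3 arrays of the untreated group, chosen by their titles, out of 36 deposited samples, which are 18 arrays with a gene-level and an exon-level entry each. The feature compared was the transcript cluster, a set of probes for 1 locus, of which the gene-level table holds 18901 with their log2 intensity. The comparison asks which transcripts differ in cells that received the QKI siRNA, and each changed transcript is marked by whether it also moved in cells that received a non-silencing siRNA, also on 3 arrays. Another transfected group of 3 arrays, hnRNP A1 siRNA, is drawn beside them. All groups were grown in medium conditioned by B104 cells, a neuroblastoma line, and transfection used Lipofectamine 2000, a cationic lipid. The untreated cells are called untransfected in the series' design text. The QKI siRNA group therefore differs from them in the lipid, in carrying an siRNA and in its target, and these cannot be told apart within the 6 arrays. The sources used here do not state the siRNA sequences, the dose or the time after transfection. CG-4 is 1 continuous cell line, so the 3 biological replicates that the titles name are samples of that line.

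QKI (quaking) is an RNA-binding protein of the STAR family that is abundant in myelinating glia. It binds a short motif in messenger RNAs and governs their splicing, stability, export and translation. Its targets known from rodents include messenger RNAs of myelin proteins, and quaking mutant mice lack compact myelin. An siRNA acts through the RNA-induced silencing complex, which cleaves a matching messenger RNA, so a working siRNA against QKI lowers the Qki transcript.

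The arrays set limits on every value that follows. Medians of the 18 arrays lay between 3.77 and 4.18 on the log2 scale, with QKI siRNA at 3.92, 4.13 and 4.18 and untreated cells at 3.91, 3.95 and 3.89. The median SD of a cluster within a group was 0.207 for QKI siRNA and 0.151 for untreated cells. Untreated arrays 1 and 2 resembled each other most (Pearson r = 0.991 over clusters), whereas untreated array 3 was closest to QKI siRNA array 1 (0.980), and QKI siRNA array 3 was closest to non-silencing siRNA array 3 (0.975). QKI siRNA arrays 1 and 2 were closest to hnRNP A1 siRNA array 1 (0.991 and 0.985). Of the progenitor markers, 4 of the 5 measured lay above 5 in untreated cells, namely Ptprz1, Sox10, Olig1 and Nkx2-2, while Cspg4, which encodes the NG2 proteoglycan, lay at 3.65, below the array medians. Of the markers of myelinating cells, 4 of 6 lay above 5, with Mobp and Cldn11 below the array medians. Microglial and fibroblast markers were near background, with 0 of 6 and 0 of 4 above 5. Of the astrocyte markers 3 of 6 lay above 5 (S100b, Slc1a3 and Gfap), of the neuronal markers 3 of 4 (Map2, Syt1 and Tubb3) and of the Schwann cell markers 1 of 3 (Pmp22).

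Against untreated cells, limma called 87 of the 18901 clusters at an adjusted p under 0.05, which is 0.46% of those tested. Of these 37 were higher (0.196%) and 50 lower (0.265%) in QKI siRNA, and 46 differed by at least 2-fold, 14 higher and 32 lower. At an unadjusted p under 0.05 there were 3241 clusters (17.1%). The 3 QKI siRNA arrays lay wholly above or below the 3 untreated arrays in each of the 87 called clusters, a pattern that 20.6% of all clusters showed. The median change over all clusters was 0.12, so a value of 0.12 is no change relative to the median cluster. Relative to it, the median called change was 0.79 for those higher and -1.20 for those lower. The shift was not uniform: the 75th percentiles of the arrays were 5.91, 5.76 and 5.69 after QKI siRNA and 5.83, 5.77 and 5.86 in untreated cells. For bright clusters the subtraction may therefore not hold. In 11 of the 87 the lower group lay below the highest array median, 7 of them among the higher ones, and there the size of a change is uncertain. A gene symbol was assigned to 75 of the called clusters, 29 higher and 46 lower. Without untreated array 1, untreated array 2 or QKI siRNA array 2 the count fell to 7, 9 and 8, and without QKI siRNA array 1 or untreated array 3 it was 416 and 418, so most single calls depend on which arrays are kept. With the split into higher and lower, scaling mattered too: 117 and 96 after quantile normalization, and 4 and 25 after centring each array on its median.

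Qki, the targeted transcript, was lower on every QKI siRNA array. Its log2 intensity was 9.99, 10.02 and 9.67 after QKI siRNA, 11.85, 11.63 and 10.84 in untreated cells and 11.47, 11.39 and 11.14 after non-silencing siRNA. The QKI siRNA arrays lay below all the others, and untreated array 3 was the lowest untreated one. The change against untreated cells was -1.55 ± 0.22 (moderated standard error of limma, 3 arrays per group here and below; adjusted p = 0.00862), while non-silencing siRNA differed from untreated cells by -0.11 ± 0.22. At the exon level 14 of its 14 probe sets were lower, each without overlap, with a median of -1.38 and a range from -1.81 to -0.33. Qki was not called without untreated array 1 (adjusted p = 0.0618) or untreated array 2 (0.0642) or with the 6 compared arrays fitted alone (0.161), and without untreated array 3 it was called at -1.85. Hnrnpa1, the target of the other siRNA and a splicing regulator reported to be governed by QKI, lay at 8.27, 8.38 and 7.85 after QKI siRNA and at 8.67, 8.50 and 7.94 in untreated cells. The groups overlapped, and the difference of -0.20 ± 0.19 did not pass (adjusted p = 0.554).

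**Figure D1:**
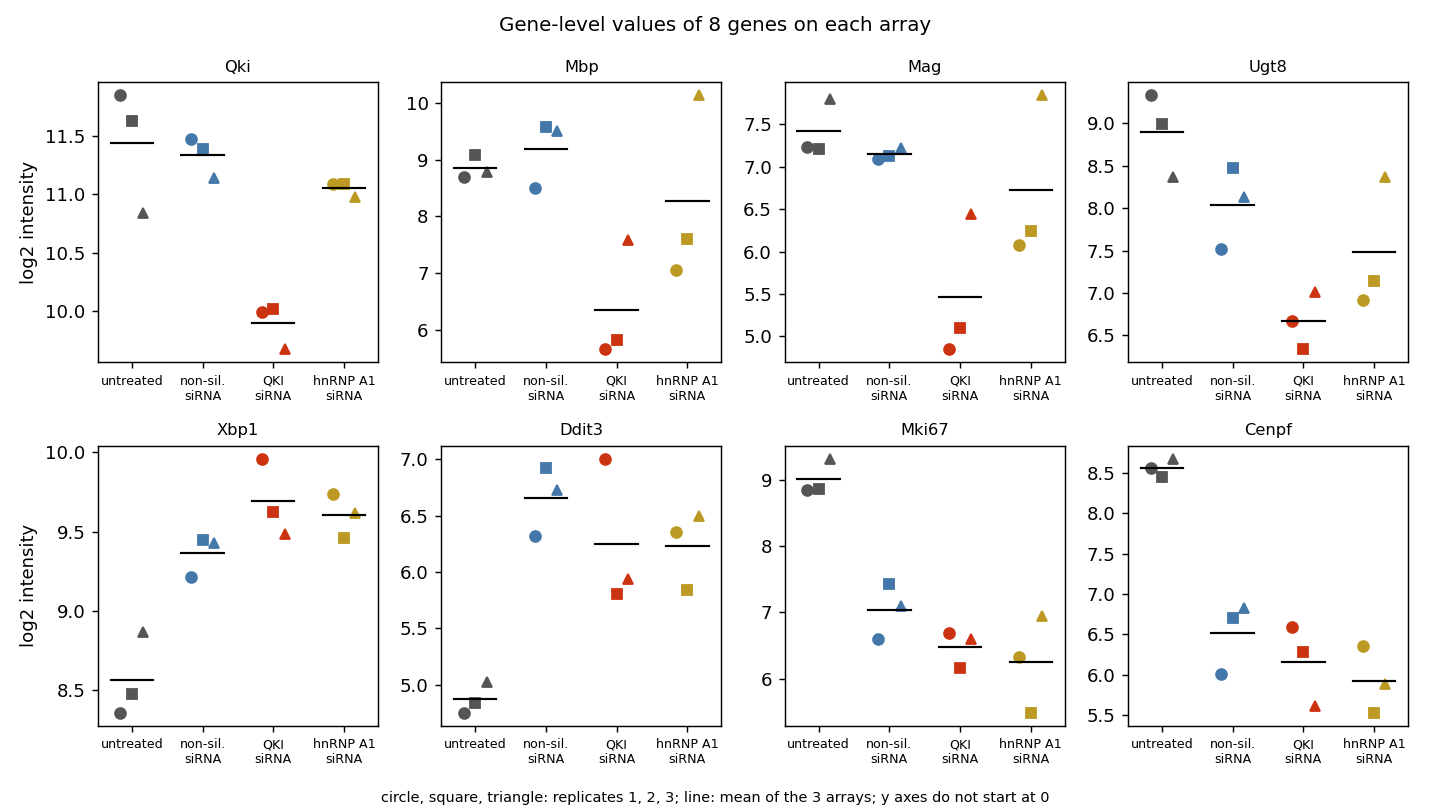
Log2 intensity (y axis, a separate range in each panel that does not start at 0) of Qki, Mbp, Mag, Ugt8, Xbp1, Ddit3, Mki67 and Cenpf on each of the 3 arrays of untreated cells, non-silencing siRNA, QKI siRNA and hnRNP A1 siRNA. Symbols stand for replicates 1, 2 and 3 and lines for group means. Qki is low on the 3 QKI siRNA arrays alone, from 9.67 to 10.02, whereas Mki67 and Cenpf are low in each of the transfected groups.

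Besides Qki, 7 genes with a symbol stood furthest from non-silencing siRNA among the called genes that did not move in that control. Ugt8 encodes the enzyme that makes galactosylceramide, the main glycolipid of myelin. It lay at 6.67, 6.34 and 7.01 after QKI siRNA, at 9.33, 8.99 and 8.37 in untreated cells and at 7.52, 8.47 and 8.13 after non-silencing siRNA. The QKI siRNA arrays were below both other groups, and the non-silencing arrays reached up into the untreated range. Ugt8 fell by 2.22 ± 0.46 (adjusted p = 0.0474), with -0.86 ± 0.46 after non-silencing siRNA and -1.42 ± 0.46 after hnRNP A1 siRNA. Slc44a1 encodes a choline transporter, and choline feeds phospholipid synthesis. Its values were 9.76, 9.97 and 9.95 after QKI siRNA, 11.01, 11.23 and 10.64 in untreated cells and 10.76, 10.81 and 10.60 after non-silencing siRNA. The non-silencing and untreated arrays overlapped, and the QKI siRNA arrays lay below both, with a change of -1.07 ± 0.22 (adjusted p = 0.0441) against -0.23 in the control.

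Afap1l2, Tmod2 and Gng12 were the other lower genes of this set. Afap1l2, an adaptor that binds Src kinases, lay at 5.92, 6.11 and 6.61 after QKI siRNA, at 7.71, 7.63 and 8.03 in untreated cells and at 7.72, 7.36 and 7.28 after non-silencing siRNA. The last 2 groups overlapped and the first stood below them, a change of -1.58 ± 0.28 (adjusted p = 0.0239) beside -0.34 in the control. Tmod2, a tropomodulin that caps actin filaments in neural cells, lay at 7.03, 6.43 and 7.06 after QKI siRNA and at 8.44, 8.28 and 8.01 in untreated cells, with 7.79, 8.002 and 7.76 after non-silencing siRNA. It fell by 1.40 ± 0.25 (adjusted p = 0.0242), with the control arrays just under the untreated ones at -0.39. Gng12, a gamma subunit of heterotrimeric G proteins, lay at 7.38, 7.40 and 7.39 after QKI siRNA, the tightest of the groups, and at 8.62, 8.68 and 8.01 in untreated cells. Its change was -1.05 ± 0.18 (adjusted p = 0.0167) and that of the control -0.21. Fyn, a Src-family kinase active in myelinating oligodendrocytes, is outside this set and was named after its values were seen. It lay at 10.35, 10.18 and 9.999 after QKI siRNA and at 11.21, 11.06 and 10.73 in untreated cells. It fell by 0.82 ± 0.16 (adjusted p = 0.0348), while non-silencing siRNA gave -0.33 without reaching an unadjusted p of 0.05.

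On the higher side, Tsc22d3 and Pkm met the same description. Tsc22d3 encodes a leucine zipper protein that glucocorticoids induce. It lay at 6.64, 6.24 and 6.10 after QKI siRNA, at 4.77, 4.56 and 5.75 in untreated cells and at 5.25, 5.07 and 5.36 after non-silencing siRNA. Untreated array 3 was above the non-silencing arrays and the other untreated arrays below them, and the QKI siRNA arrays were the highest. It rose by 1.30 ± 0.27 (adjusted p = 0.0476), with 0.20 in the control and 1.11 ± 0.27 after hnRNP A1 siRNA. Pkm, the pyruvate kinase of the last step of glycolysis, lay at 6.63, 6.76 and 6.43 after QKI siRNA, at 5.16, 5.74 and 5.70 in untreated cells and at 5.62, 6.24 and 5.41 after non-silencing siRNA. It rose by 1.07 ± 0.21 (adjusted p = 0.037) with 0.22 in the control and 0.02 after hnRNP A1 siRNA. It is read by 3 exon-level probe sets, all of them higher. The direct comparison of QKI siRNA with non-silencing siRNA called none of these genes: limma called 0 of 18901 clusters there, with 1721 (9.11%) at an unadjusted p under 0.05, and the lowest adjusted p among the 87 was 0.179, that of Qki.

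Of 22 measured myelin genes, 2 fell (Ugt8 and Enpp6), 0 rose and 20 were not called. By sign alone 15 were lower and 7 higher, and at an unadjusted p under 0.05 there were 10 lower and 1 higher, to be read against 5.7% and 11.4% of all clusters. Their median change was -0.71, beside 0.12 over all clusters, and it was -0.03 after non-silencing siRNA. After hnRNP A1 siRNA the median was -0.23, and the mean over the list was 5.90, 6.04 and 6.74 on those 3 arrays. The first 2 of these also lay below each untreated array (6.35 to 6.60). Enpp6, a choline phosphodiesterase that marks newly forming oligodendrocytes, lay at 3.57, 3.78 and 4.31 after QKI siRNA, at 5.19, 5.19 and 4.84 in untreated cells and at 4.63, 4.53 and 4.33 after non-silencing siRNA. The non-silencing arrays lay between the other groups, and the QKI siRNA mean of 3.89 was below the highest array median, so the size of its change, -1.19 ± 0.19 (adjusted p = 0.0136), is uncertain.

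Mbp and Mag, whose messenger RNAs are known QKI targets, were low on QKI siRNA arrays 1 and 2 and less so on array 3. Mbp, which encodes myelin basic protein, lay at 5.66, 5.83 and 7.58, with 8.69, 9.09 and 8.79 in untreated cells and 8.51, 9.58 and 9.50 after non-silencing siRNA. Its difference from untreated cells was -2.50 ± 0.70, which did not pass (adjusted p = 0.12), and a second, dim cluster of Mbp gave 0.04. After hnRNP A1 siRNA Mbp lay at 7.06, 7.60 and 10.14, so arrays 1 and 2 were below the untreated arrays there too and array 3 above them. Mag, the myelin-associated glycoprotein, lay at 4.85, 5.09 and 6.45, with 7.24, 7.21 and 7.80 in untreated cells and 7.09, 7.13 and 7.22 after non-silencing siRNA. The untreated and non-silencing arrays of Mag overlapped, and its difference from untreated cells was -1.95 ± 0.43 (adjusted p = 0.0575). Without QKI siRNA array 3 Mag was called at -2.45 (adjusted p = 0.0281). Nfasc, a cell adhesion molecule of the paranode, and Enpp2, the enzyme autotaxin, had -1.45 ± 0.44 and -1.39 ± 0.77, and neither passed. The mean of the 22 genes was 5.57 and 5.68 on QKI siRNA arrays 1 and 2 and 6.18 on array 3, below the 6.35 to 6.60 of untreated cells. Without QKI siRNA array 3 the median change was -0.85 and without QKI siRNA array 1 it was -0.53.

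Of 17 measured progenitor genes, 1 fell, 0 rose and 16 were not called, with a median of -0.42 and of -0.10 after non-silencing siRNA. Over all clusters 0.265% were called lower. By sign alone 15 of the 17 were lower and 2 higher. At an unadjusted p under 0.05 there were 4 lower and 0 higher, beside 5.7% and 11.4% of all clusters. Ptprz1, a receptor phosphatase that carries chondroitin sulfate on progenitors, lay at 10.70, 10.55 and 10.30 after QKI siRNA, at 11.72, 11.66 and 11.29 in untreated cells and at 11.48, 10.98 and 10.89 after non-silencing siRNA. It fell by 1.04 ± 0.16 (adjusted p = 0.0108), and the non-silencing arrays lay between the other groups and overlapped the untreated ones. Gpr17, a receptor of cells about to differentiate, lay at 7.02, 7.25 and 7.21 after QKI siRNA, with 9.37, 9.61 and 7.56 in untreated cells, and its -1.68 ± 0.49 did not pass (adjusted p = 0.129), though it did at -2.33 without untreated array 3 (adjusted p = 0.0104). The mean of untreated array 3 over these genes was 7.32, beside 8.20 and 7.96 on the other untreated arrays and 7.19 to 7.47 after QKI siRNA. Without untreated array 3 the median was -0.70, and without untreated array 1 it was -0.20. Of 15 astrocyte markers 1 fell and 0 rose, the median was -0.28, and their mean was 5.96, 6.01 and 5.39 in untreated cells and 5.41, 5.45 and 5.55 after QKI siRNA. Their part in these differences was not tested.

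The 1 astrocyte marker that fell, Slc1a3, encodes the glutamate transporter GLAST, which glial progenitors express too. Its values were 4.87, 4.48 and 4.80 after QKI siRNA, 6.66, 6.73 and 5.79 in untreated cells and 4.60, 5.23 and 4.99 after non-silencing siRNA. It fell by 1.68 ± 0.33 (adjusted p = 0.0362), and non-silencing siRNA gave -1.46 ± 0.33, with arrays that overlapped those of QKI siRNA. In bulk RNA, fewer cells of a type and less RNA per cell cannot be told apart, which holds for each marker and list given here.

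In the unfolded protein response, 4 of 31 measured genes passed the test after QKI siRNA, all of them higher. In this response, misfolded proteins in the endoplasmic reticulum activate sensors, which leads to the splicing of Xbp1 messenger RNA, the cleavage of ATF6 and the translation of ATF4. Both XBP1 and ATF6 are known from mammals to act through an element of the letters CCAAT and CCACG with 9 bases of any kind between them, and through a shorter form, ATTGG and CCACG with 1 base between them. Promoters of RefSeq assembly GRCr8, 250 bases before to 50 after each transcription start, were searched on both strands for the letters of these elements. The long form occurred in 0.0657% of 33469 promoters and in 6 of 27 promoters of the measured stress genes (22.2%), namely Calr, Canx, Dnajc3, Hsp90b1, Hspa5 and Xbp1. The short form occurred in 0.0508% of all and in 3 of the 27 (11.1%), Dnajb11, Herpud1 and Hyou1. The element TGATGCAAT, bound by ATF4 with C/EBP partners, occurred in 0.188% of all and in 0 of the 27. A match is a description of letters and not of a site in use. The 250 bases upstream of 2 called genes are given to show each form, in lower case with the match in capitals. They are Herpud1 at chr19:10614708-10614957 on the minus strand, where the match runs from 124 to 114 bases before the start, and Xbp1 at chr14:84604373-84604622 on the plus strand, where it runs from 65 to 47 bases before it.
Herpud1: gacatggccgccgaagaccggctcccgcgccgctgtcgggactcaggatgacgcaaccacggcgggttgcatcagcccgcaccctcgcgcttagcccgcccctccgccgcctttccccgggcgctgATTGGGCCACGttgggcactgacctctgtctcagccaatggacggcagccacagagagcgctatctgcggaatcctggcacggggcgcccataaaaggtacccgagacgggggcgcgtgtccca
Xbp1: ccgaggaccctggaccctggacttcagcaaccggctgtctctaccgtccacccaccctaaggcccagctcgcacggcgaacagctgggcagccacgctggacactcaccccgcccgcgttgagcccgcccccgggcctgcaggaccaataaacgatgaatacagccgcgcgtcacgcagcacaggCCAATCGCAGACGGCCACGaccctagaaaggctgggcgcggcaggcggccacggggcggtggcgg

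Of 31 measured stress response genes, 4 rose (Sdf2l1, Ddit3, Herpud1 and Xbp1), 0 fell and 27 were not called. At an unadjusted p under 0.05, 17 were higher and 0 lower, beside 11.4% and 5.7% of all clusters, and 30 of the 31 had a positive difference. Their median was 0.75, beside 0.12 over all clusters, and 0.43 after non-silencing siRNA, where 13 were higher at an unadjusted p under 0.05 (6.02% of all clusters). After hnRNP A1 siRNA the median was 0.79, and Sdf2l1, Herpud1, Ddit3 and Xbp1 differed from untreated cells by 1.69, 1.43, 1.36 and 1.04. The mean over the list was 8.73, 8.37 and 8.15 on the QKI siRNA arrays, 7.98, 8.12 and 8.15 on the non-silencing arrays and 7.49, 7.51 and 7.91 on the untreated arrays. Both siRNA groups thus lay above each untreated array, and QKI siRNA array 3 lay within the non-silencing range. The median stayed positive under every alternative tried for it, from 0.59 to 1.18, while the number of called members ranged from 0 to 24. It was 0 with the compared arrays alone, with median centring and without QKI siRNA array 2, untreated array 1 or untreated array 2, and 24 with array weights.

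Sdf2l1, a component of chaperone complexes of the endoplasmic reticulum, had values of 7.96, 7.06 and 7.10 after QKI siRNA, 5.76, 5.43 and 6.53 in untreated cells and 6.39, 6.93 and 6.64 after non-silencing siRNA. The QKI siRNA arrays were the highest and untreated array 3 lay within the non-silencing range. Sdf2l1 rose by 1.47 ± 0.29 (adjusted p = 0.0371), with 0.75 after non-silencing siRNA. Herpud1, a membrane protein of the degradation machinery of that organelle whose upstream letters are given above, had values of 7.76, 7.43 and 7.56 after QKI siRNA, 6.05, 5.84 and 6.98 in untreated cells and 7.26, 7.30 and 7.25 after non-silencing siRNA. Each siRNA group lay above the untreated arrays, and the changes were 1.29 ± 0.25 (adjusted p = 0.0352) and 0.98 ± 0.25. Xbp1, the transcription factor of the long-form promoter shown, had values of 9.96, 9.63 and 9.49 after QKI siRNA, 8.36, 8.48 and 8.87 in untreated cells and 9.21, 9.45 and 9.43 after non-silencing siRNA. It rose by 1.13 ± 0.21 (adjusted p = 0.0297), with 0.80 in the control.

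Ddit3 encodes CHOP, a transcription factor that promotes death under lasting stress, and its mean was larger after non-silencing siRNA than after QKI siRNA, a difference that did not pass (adjusted p = 0.71). It lay at 7.004, 5.81 and 5.94 after QKI siRNA, at 4.75, 4.84 and 5.02 in untreated cells and at 6.32, 6.92 and 6.73 after non-silencing siRNA. QKI siRNA array 1 was above the non-silencing arrays and the other QKI siRNA arrays were below them. It rose by 1.38 ± 0.27 after QKI siRNA (adjusted p = 0.0352) and by 1.78 ± 0.27 after non-silencing siRNA (adjusted p = 0.0234). Among members that were not called, Hyou1, Hspa5 and Manf, which serve protein folding in the endoplasmic reticulum, had 1.39 ± 0.31, 1.35 ± 0.31 and 1.34 ± 0.30, with adjusted p of 0.06, 0.0637 and 0.0575. Without untreated array 3 they were called, with adjusted p of 0.0245, 0.0399 and 0.0266. Their differences after non-silencing siRNA were 0.92, 1.25 and 0.75. Atf3, a transcription factor of stress and of immediate early responses, had 1.33 ± 0.36 and 1.35 after the siRNAs in that order.

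Among other called genes that were higher, Selenow, a small selenoprotein, lay at 7.42, 7.93 and 7.31 after QKI siRNA, at 5.95, 6.07 and 6.26 in untreated cells and at 7.03, 6.92 and 6.98 after non-silencing siRNA. The 3 groups did not overlap, and the non-silencing arrays were between the others. Selenow rose by 1.46 ± 0.27 (adjusted p = 0.0242), with 0.88 in the control. Gadd45g, a growth arrest protein, rose by 1.16 ± 0.23, Hrk, a BH3-only protein of apoptosis, by 1.06 ± 0.21, and Prmt6, an arginine methyltransferase, by 1.13 ± 0.21. Their control values were 0.89, 0.77 and 0.81, and each counts as moving there. Znhit2, a zinc finger protein, and Ramp2, a partner of calcitonin-family receptors, rose by 1.13 and 1.04, with 0.51 and 0.58 in the control. Ppm1h, a protein phosphatase, rose by 0.99, the uncharacterised LOC102549726 by 0.93 and Or8b12c, an olfactory receptor whose untreated mean of 3.57 is near background, by 0.91, with 0.63, 0.62 and 0.39 in the control. The adjusted p of these 9 genes lay between 0.00728 and 0.0414.

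**Figure D2:**
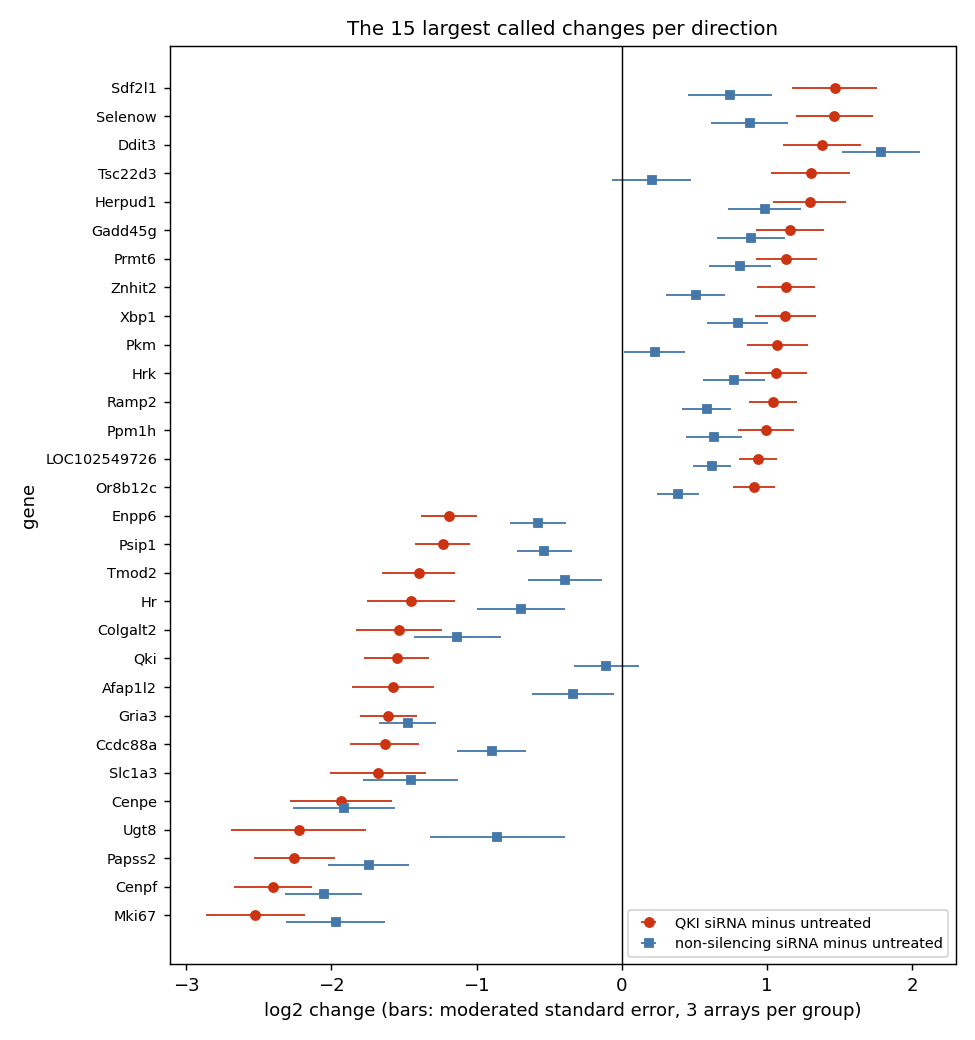
Log2 change (x axis) of the 15 called genes with the largest change in each direction (y axis) in QKI siRNA minus untreated (circles) and non-silencing siRNA minus untreated (squares), with limma's moderated standard error as bars. The same 3 untreated arrays enter both. Qki, Afap1l2 and Tsc22d3 have a square near 0, at -0.11, -0.34 and 0.20, while Cenpe and Gria3 have circle and square close together.

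Mki67 and Cenpf, which act in mitosis, had the largest falls among called genes. Many genes of mitosis are known to be held down outside the G2 and M phases through the cell cycle genes homology region, an element of the letters TTTGAA. These letters, on either strand, occurred in 18.3% of the 33469 promoters and in 14 of the 22 promoters found for measured G2 and M phase genes (63.6%). Mki67 holds the element more than once, at 117 to 112 and at 99 to 94 bases before its start, in capitals in the 250 bases at chr1:199952594-199952843 on the minus strand. The match in the Cenpf window lies after the start, and Cenpe has none in its window.
Mki67: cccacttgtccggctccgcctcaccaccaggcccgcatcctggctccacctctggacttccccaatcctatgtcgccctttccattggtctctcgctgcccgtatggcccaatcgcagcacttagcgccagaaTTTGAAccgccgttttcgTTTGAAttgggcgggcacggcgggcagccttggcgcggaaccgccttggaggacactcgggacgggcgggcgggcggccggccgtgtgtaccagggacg

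Of 26 measured genes of the G2 and M phase, 3 fell (Mki67, Cenpf and Cenpe), 0 rose and 23 were not called, beside 0.265% of all clusters called lower. By sign alone 24 were lower and 2 higher. At an unadjusted p under 0.05 there were 7 lower and 0 higher, beside 5.7% and 11.4% of all clusters. After non-silencing siRNA 24 were lower and 0 higher at that threshold, beside 4.32% and 6.02% of all clusters. Mki67 encodes Ki-67, a protein of dividing cells. It lay at 6.69, 6.16 and 6.60 after QKI siRNA, at 8.85, 8.86 and 9.32 in untreated cells and at 6.60, 7.42 and 7.10 after non-silencing siRNA, so the siRNA groups overlapped each other and not the untreated arrays. It fell by 2.53 ± 0.34 (adjusted p = 0.00549), with -1.97 ± 0.34 in the control, and it was called under each of the 15 alternatives tried for it. Cenpf, a kinetochore protein, lay at 6.59, 6.28 and 5.61 after QKI siRNA, at 8.56, 8.45 and 8.68 in untreated cells and at 6.01, 6.71 and 6.82 after non-silencing siRNA. It fell by 2.40 ± 0.27 (adjusted p = 0.00137), with -2.05 in the control. Cenpe, a kinesin of the kinetochore, lay at 4.72, 4.41 and 4.61 after QKI siRNA, at 6.49, 6.25 and 6.80 in untreated cells and at 4.12, 4.92 and 4.76 after non-silencing siRNA, and it fell by 1.93 ± 0.35 (adjusted p = 0.0242) with -1.91 in the control.

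The other 23 genes of the list did not follow these 3 on each array. Their mean was 7.55, 7.09 and 5.82 on the QKI siRNA arrays, 7.16, 7.04 and 8.02 on the untreated arrays and 5.57, 6.05 and 6.07 on the non-silencing arrays. QKI siRNA array 1 thus lay above untreated arrays 1 and 2, and QKI siRNA array 3 lay in the non-silencing range. Top2a, the topoisomerase of mitotic chromosomes, had 10.01, 9.65 and 8.15 after QKI siRNA and 10.18, 10.21 and 10.75 in untreated cells, and its -1.11 ± 0.45 did not pass (adjusted p = 0.241). The median of all 26 was -0.64 after QKI siRNA and -1.69 after non-silencing siRNA, and without QKI siRNA array 3 and untreated array 3 the former was 0.09. Of 22 S phase genes 0 were called, with a median of -0.18 that turned to 0.17 without QKI siRNA array 3, to 0.34 without untreated array 3 and to 0.27 with array weights. Their mean was 7.12, 6.64 and 5.76 after QKI siRNA and 6.31, 6.23 and 7.61 in untreated cells, so each group spanned more than 1 log2 unit.

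**Figure D3:**
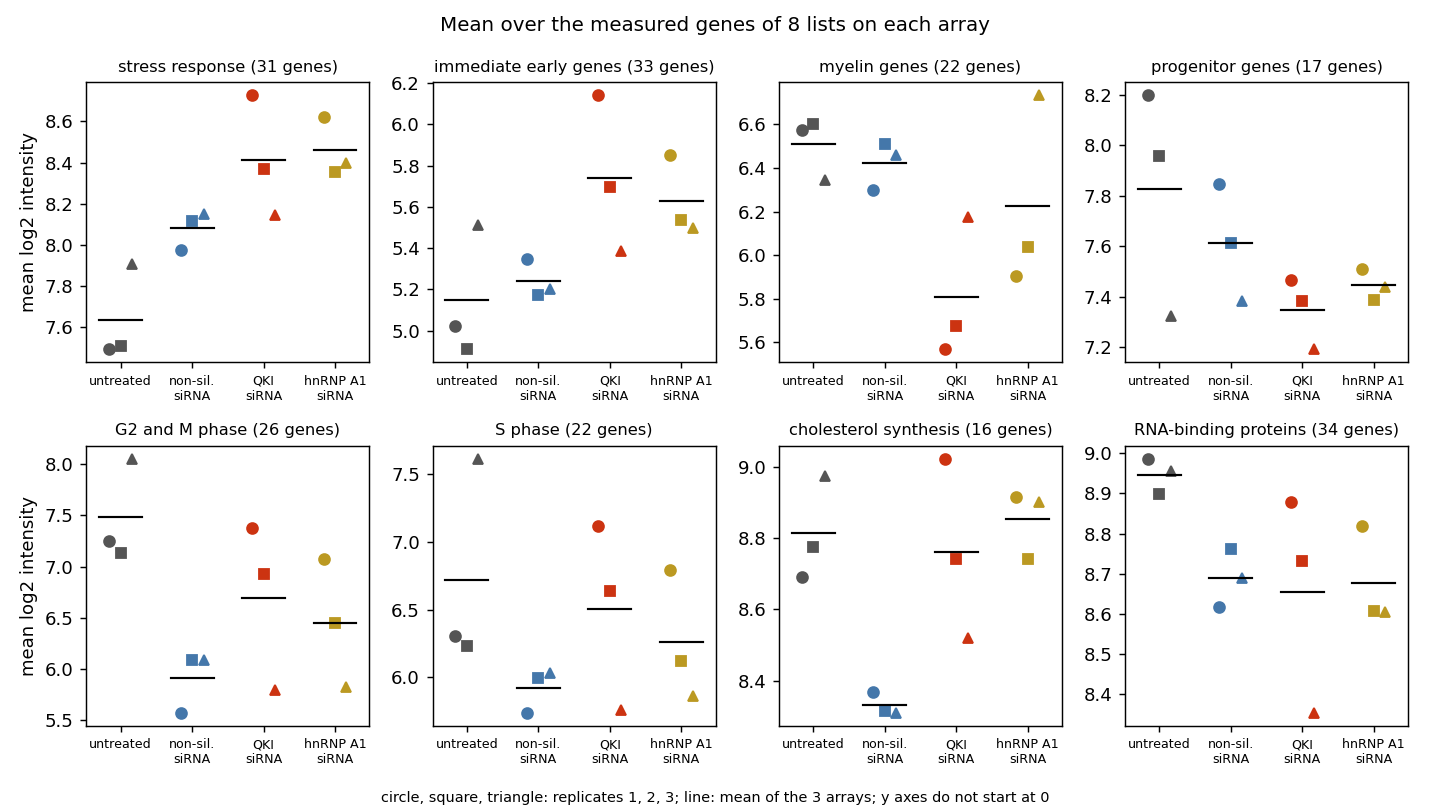
Mean log2 intensity over the measured genes of 8 lists (y axis, a separate range in each panel that does not start at 0) on each array of 4 groups. Symbols stand for replicates 1, 2 and 3 and lines for group means. Stress response means of the untreated arrays (7.49 to 7.91) lie below those of QKI siRNA (8.15 to 8.73), and in the cell cycle panels untreated array 3 and QKI siRNA array 3 lie at opposite ends of their groups.

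Marking by the non-silencing control divided the 87 called clusters unevenly. A cluster was taken to move there when its difference from untreated cells had the same sign and an unadjusted p under 0.05, which 6.02% of all clusters met on the higher side and 4.32% on the lower side. Of the 87, 63 moved (72.4%), 25 of the 37 higher ones and 38 of the 50 lower ones, and 24 did not, 12 in each direction. At an adjusted p under 0.05 non-silencing siRNA had 15 called clusters (0.0794% of all), 6 higher (0.0317%) and 9 lower (0.0476%), and 10 of the 87 were among them. Both differences are taken from the same 3 untreated arrays, so a high or low untreated value enters both, and the counts describe these arrays. The median change of the higher clusters was 0.91 after QKI siRNA and 0.42 after non-silencing siRNA, and that of the lower clusters was -1.08 and -0.56. After hnRNP A1 siRNA, set against the same untreated arrays, all 87 had the sign seen after QKI siRNA. Their medians there were 0.75 for the higher and -0.76 for the lower clusters. The size in the control was between 5.62% and 129% of that after QKI siRNA, with a median of 50.9%. In 4 genes it was larger in the control: Ddit3 and Rbmx, and Axl and Sdc3, a receptor tyrosine kinase and a syndecan named after their values were seen. Axl lay at 5.14, 4.89 and 4.73 after QKI siRNA, at 6.06, 5.97 and 6.06 in untreated cells and at 4.89, 4.58 and 4.62 after non-silencing siRNA, with changes of -1.11 and -1.34.

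Of the 63 that moved, the 8 closest to non-silencing siRNA included Cenpe, Gria3, Rbmx, Fer, Stx1a and Slc33a1. Gria3, an AMPA receptor subunit, lay at 4.97, 4.99 and 5.01 after QKI siRNA, at 6.66, 7.01 and 6.12 in untreated cells and at 5.13, 5.22 and 5.01 after non-silencing siRNA. It fell by 1.61 ± 0.20 (adjusted p = 0.00276), with -1.47 in the control, and both siRNA groups lay below the lowest untreated array. Rbmx, an RNA-binding protein of splicing, fell by 0.83 ± 0.14 (adjusted p = 0.0167), with -0.92 in the control. Fer, a tyrosine kinase, Ano4, a membrane protein of the anoctamin family, and Igsf10, of the immunoglobulin superfamily, fell by 0.66, 0.64 and 0.56, with -0.58, -0.60 and -0.52. Stx1a, a syntaxin of vesicle fusion, and Slc33a1, the acetyl-CoA transporter of the endoplasmic reticulum, rose by 0.79 each, with 0.70 and 0.67 in the control.

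Other large falls lay between these extremes. Papss2, which makes the sulfate donor PAPS, lay at 4.05, 4.13 and 4.37 after QKI siRNA, at 6.75, 6.87 and 5.70 in untreated cells and at 4.56, 4.73 and 4.79 after non-silencing siRNA. The 3 groups did not overlap, and the QKI siRNA values were near the array medians. Papss2 fell by 2.26 ± 0.28 (adjusted p = 0.00276), with -1.74 in the control. Ccdc88a, the actin-binding protein girdin, and Colgalt2, a collagen galactosyltransferase, changed by -1.63 ± 0.24 and -1.54 ± 0.30. Hr, a nuclear corepressor, and Psip1, a chromatin protein, changed by -1.45 ± 0.30 and -1.23 ± 0.19. The adjusted p of the 4 lay between 0.00898 and 0.0477, and their control values were -0.90, -1.13, -0.70 and -0.53. Myl12a, a regulatory light chain of myosin, had the smallest called rise, 0.47 ± 0.09 (adjusted p = 0.0352), with 0.04 in the control. Its arrays lay at 6.22, 6.30 and 6.29 after QKI siRNA and at 5.78, 5.77 and 5.86 in untreated cells, far apart for their spread.

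**Figure D4:**
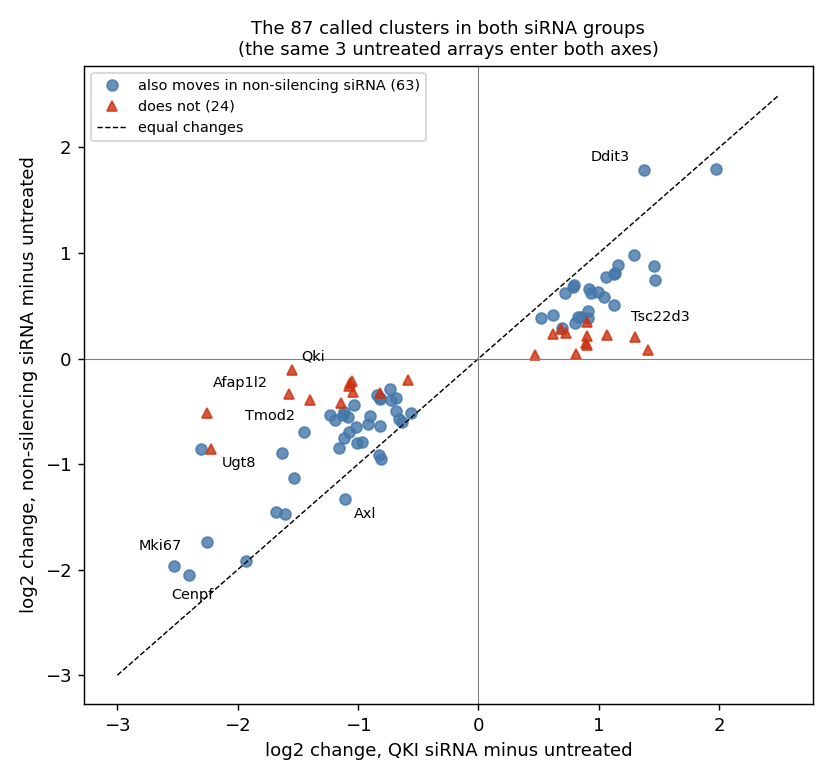
Log2 change after non-silencing siRNA (y axis) against that after QKI siRNA (x axis), each minus untreated, for the 87 called clusters. Circles are the 63 that also move in non-silencing siRNA and triangles the 24 that do not, the dashed line marks equal changes, and the 3 untreated arrays enter both axes. Qki lies at -1.55 and -0.11 and Ddit3, above the line, at 1.38 and 1.78.

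Called clusters without an assigned symbol included changes of the same size. Cluster 7216806 had the largest called rise, from 3.73, 3.94 and 3.85 in untreated cells to 5.89, 5.89 and 5.67, with 5.89, 5.30 and 5.73 after non-silencing siRNA. Cluster 7343072 lay at 5.29, 5.99 and 6.22 after QKI siRNA, with 4.68, 4.25 and 4.34 in untreated cells and 4.42, 4.79 and 4.32 after non-silencing siRNA. The first thus moved in the control and the second did not.

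Immediate early genes, which growth factors and stress switch on within minutes, had 0 called members of 33. Of these, 14 were higher and 0 lower at an unadjusted p under 0.05, beside 11.4% and 5.7% of all clusters, and the median was 0.51, with 0.11 after non-silencing siRNA. Egr1, a zinc finger transcription factor, lay at 10.45, 9.95 and 5.87 after QKI siRNA, at 7.07, 6.34 and 8.42 in untreated cells and at 6.99, 6.62 and 6.11 after non-silencing siRNA. QKI siRNA arrays 1 and 2 were above each other array of the 3 groups and array 3 below them all, so that the difference of 1.48 ± 0.99 did not pass (adjusted p = 0.422). Egr3 and Egr2 of the same family had 1.31 ± 0.60 and 1.07 ± 0.44, with array 1 highest in both, at 7.82 and 6.03. Among 17 genes of cell cycle arrest, Gadd45g rose, 0 fell, and Cdkn1a, the inhibitor p21, had 6.89, 5.54 and 5.18 after QKI siRNA and 4.67, 4.39 and 5.16 in untreated cells. Its 1.13 ± 0.50 did not pass (adjusted p = 0.274), and the difference after non-silencing siRNA was -0.57.

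Rbmx, a called fall given above, is not a member of the list of RNA-binding and splicing factors, so the count that follows holds for that list alone. Among its 34 measured members Qki was the 1 that fell, and 0 rose. Their median was -0.32, with -0.21 after non-silencing siRNA. Their mean was 8.88, 8.73 and 8.35 after QKI siRNA and 8.90 to 8.99 in untreated cells. Tia1, a splicing factor that also forms stress granules, lay at 7.28, 7.05 and 7.06 with 8.02, 8.11 and 8.06 in untreated cells, and its -0.93 ± 0.24 did not pass (adjusted p = 0.0896). Of 7 genes of the small RNA machinery, through which siRNAs act, 0 were called and the median was -0.35, with Tnrc6a, a scaffold of the silencing complex, at -0.83 ± 0.18 (adjusted p = 0.0518). It was called without QKI siRNA array 1 (0.0293) and without untreated array 3 (0.0211). Cholesterol synthesis, 16 genes with 0 called, had a median of -0.05, while it was -0.52 after non-silencing siRNA. Fatty acid and myelin lipid genes, 16 with Ugt8 called, had -0.30 and -0.32 in that order.

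In the matrix list of 37 genes 0 were called, and Tnr, the tenascin of oligodendrocytes, lay at 6.30, 6.34 and 8.10 after QKI siRNA, with 9.51, 9.59 and 8.28 in untreated cells and 9.69, 9.30 and 9.33 after non-silencing siRNA. Its difference from untreated cells was -2.21 ± 0.57 (adjusted p = 0.0919). Timp3, an inhibitor of matrix proteases, had -1.70 ± 0.39 (adjusted p = 0.0659), with -1.93 in the control. Without untreated array 3 both were called, at -2.64 (0.0371) and -2.13 (0.00982). Of 30 growth factor genes 0 were called, with Erbb4, a neuregulin receptor, at -1.32 ± 0.45 and -0.01 in the control, and called at -1.83 without untreated array 3 (adjusted p = 0.0367). Notch and Wnt genes (23, 0 called), heat shock genes (10, 0 called, median 0.38), interferon genes (27, 0 called, median 0.00), oxidative phosphorylation (23, 0 called) and lysosomal genes (33, 0 called) held no call. Cytoskeletal genes (33, Myl12a called) and genes of glycolysis and hypoxia (27, Pkm called) had medians of -0.28 and 0.17. Tmod2 and Ccdc88a, actin-related genes called lower and given above, are not members of the cytoskeletal list. The 9 measured genes reported as QKI RNA targets, 0 of them called, had a median of 0.08. By sign 6 were higher and 3 lower, and at an unadjusted p under 0.05 there were 1 higher and 2 lower. Their mean was 5.78, 5.71 and 6.03 after QKI siRNA and 6.12, 6.12 and 6.13 in untreated cells. It was 5.85, 5.89 and 6.43 after hnRNP A1 siRNA.

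Neuronal (23), Schwann cell (13), fibroblast (15) and microglial (16) lists had 0 called members and medians of 0.05, -0.08, 0.15 and 0.15. The microglial mean was 3.55 to 3.59 in untreated cells and 3.58 to 3.73 after QKI siRNA, and the fibroblast mean 3.96 to 4.14 and 4.10 to 4.30, near or below the array medians.

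**Figure D5:**
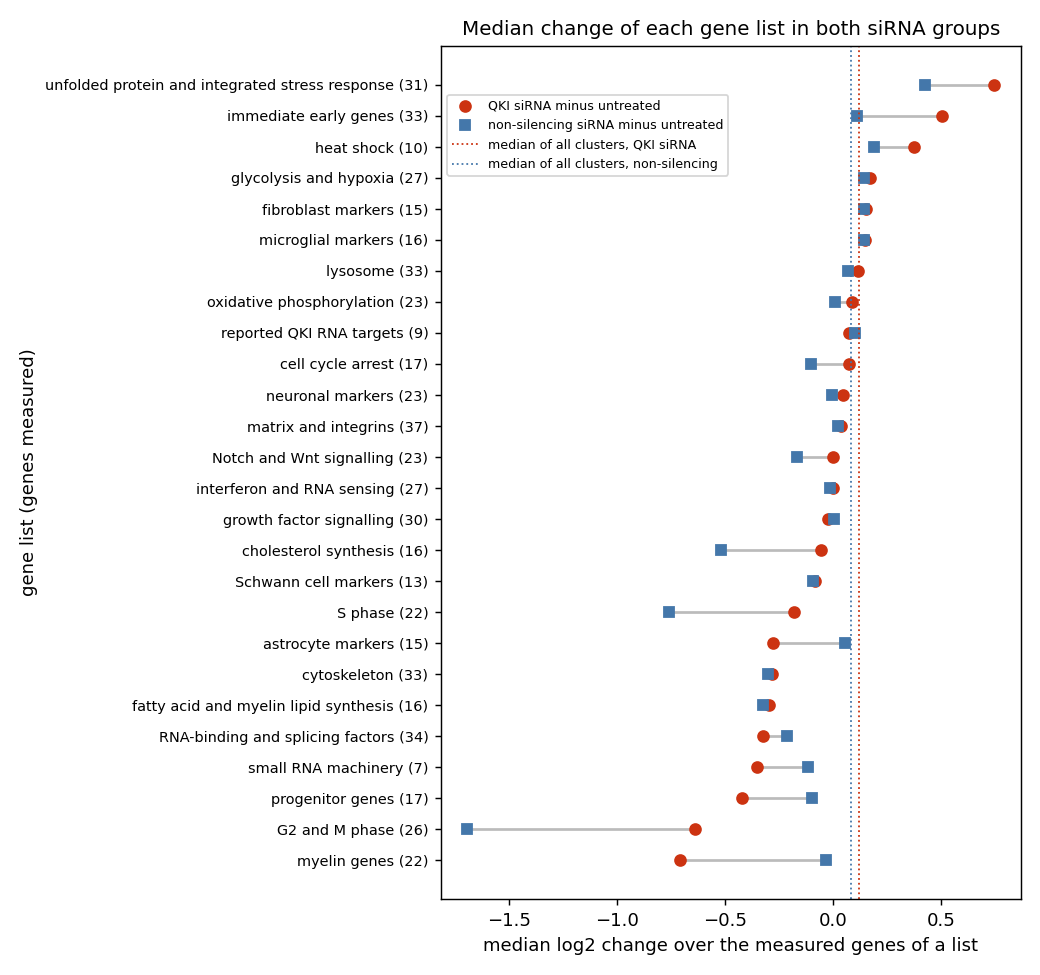
Median log2 change (x axis) over the measured genes of each of 26 lists (y axis, number of genes in brackets) in QKI siRNA minus untreated (circles) and non-silencing siRNA minus untreated (squares), with dotted lines at the median of all clusters, 0.12 and 0.08. The same 3 untreated arrays enter both. The myelin median lies at -0.71 and -0.03, the G2 and M phase median at -0.64 and -1.69 and the stress response median at 0.75 and 0.43.

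At the exon level, the probe sets of the 75 called genes with a symbol were read from the same arrays and are no independent check. Their median change had the sign of the gene-level change in 75 of 75, and 981 of 1015 probe sets had it. In 55 genes every probe set had it. Ugt8 had 9 of 9 probe sets lower, with a median of -2.02, and Mki67 17 of 17, with a median of -2.58.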

How the data were processed

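RNA of CG-4 cells, prepared with Trizol and RNeasy and depleted of ribosomal RNA and labelled with an Affymetrix sense target kit, was read on rat exon arrays, per the labels' protocols. The authors deposited log2 intensities made with RMA, and Partek is also named, per the submitters' processing notes. The sources used here name no version, genome build or annotation. Intensities carry no read depth, and the number of arrays limits the precision. No detection calls or scan dates were used.

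The deposited log2 values were used as they stand. With limma 3.58.1 in R 4.3.3 (package data.table, version 1.17.8), 1 mean per group was fitted over all 18 gene-level arrays, all 6 groups sharing the estimate of spread (12 residual and 3.57 prior degrees of freedom). Tests were two-sided with Benjamini-Hochberg adjustment over 18901 clusters, called at an adjusted p under 0.05. Figures were drawn with matplotlib 3.10.9 in Python 3.11.15.

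In the platform annotation 13327 clusters had 1 symbol, 620 several and 4954 none. Symbols were updated through RefSeq GRCr8 (13232 matched, 39 renamed), and clusters with several symbols are unnamed. A gene with more than 1 cluster is given by that of the highest mean. Promoters are those of RefSeq GRCr8.

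Named genes are Qki, Hnrnpa1 and Mbp, the 15 largest changes among called genes in each direction (1 symbol, mean at or above the 25th percentile, 3.45, no overlap of the groups), the called members of 26 lists, up to 4 uncalled members per list, and the 8 called genes furthest from and the 8 closest to non-silencing siRNA. Genes outside this rule are marked in the text. The members and lists were chosen with earlier results of these data known. The titles name biological replicates of 1 line. The p-values rest on the spread between such samples pooled over all 6 groups, not on that of the 6 compared arrays alone.

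Tested on simulated data over 18901 clusters, the step recovered 97.0% of 66 clusters changed 4-fold, 62.7% of 67 at 2-fold and 29.9% of 67 at 1.5-fold, with 4 false calls. The simulated noise was independent between clusters and held no effect shared across an array. These rates therefore do not describe arrays that deviate as a whole. Alternatives changed the arrays in the fit, scaling, filter, variance model, weights, block, summary level and replicates.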

Additional observations from a re-analysis of the deposited data

Results flagged for a closer look

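The arrays of the 65 genes and clusters whose change is given were set against the untreated mean. In 3 of them, all uncalled list members, every QKI siRNA array lay on one side of it and every non-silencing array on the other. The same 3 untreated arrays enter both differences. Many of the 65 were picked for large changes, and the pattern was not counted over all list members or all clusters. Tnr differed from untreated cells by -2.21 after QKI siRNA and by 0.32 after non-silencing siRNA, which are -2.53 apart. Egr3 differed by 1.31 and -0.60, which are 1.91 apart, and Cdkn1a by 1.13 and -0.57, which are 1.70 apart. In the direct comparison of the siRNA groups by limma none of the 3 passed, with adjusted p of 0.29, 0.394 and 0.365.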

How the results depend on the processing

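The count of 87 clusters called for QKI siRNA against untreated cells depended on the setting. It was 5 with the compared arrays alone, 213 with quantile normalization, 29 with median centring, 52 with a trend and robust variance, 54 from exon-level medians, and 8368 with array weights, which gave QKI siRNA array 2 a weight of 6.63 and the others between 0.315 and 3.12. With 1 array left out it ran from 7 to 418, and it was 307 without untreated array 3 and QKI siRNA array 3, an alternative chosen after seeing the data. The filter gave 105. In each gene-level setting all 87 clusters that were present kept their sign and an unadjusted p under 0.05. The 87 were picked from these same arrays, so this is no independent check. For non-silencing siRNA against untreated cells, 15 calls became 120, 25, 4, 6 and 1348 with compared arrays alone, quantile normalization, median centring, trend and array weights, and 2 to 105 with arrays left out. For QKI siRNA against non-silencing siRNA, 0 calls (1721 at an unadjusted p under 0.05) became 2 with compared arrays alone, 1 from exon-level medians, 4134 with array weights and 0 to 5 with arrays left out. Of the called clusters 63 also moved in non-silencing siRNA. This was 146 of 213 with quantile normalization, 24 of 29 with median centring, 40 of 52 with trend, 39 of 54 from exon-level medians, 2583 of 8368 with array weights and 7 to 313 with arrays left out. It was 10 of 87 when an adjusted p under 0.05 was asked of the control, and 45 when a change of at least 0.5 times that after QKI siRNA was. The causes were not tested.

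With the replicate number as a block, 152 clusters were called in place of 87, 57 in place of 15 and 0 in place of 0, and 102 of 152 also moved in non-silencing siRNA. The labels do not say that a number marks a shared batch. Deviations of same-numbered QKI siRNA and untreated arrays correlated at 0.02, 0.09 and -0.11. So few values cannot decide whether the numbers pair the samples, and the hnRNP A1 siRNA arrays were not included in this check. Among the genes whose change is given, Mbp (adjusted p = 0.0436), Manf (0.0452), Tnrc6a (0.0452) and Mag (0.0325) gained a call with the block. Each of them was also called under another alternative.

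Alternatives were run for 65 genes and clusters whose change is given, up to 15 each. Of these values 669 kept their direction and side of the threshold, 256 kept their direction without the call, 48 gained a call and 0 turned. Array weights gave 19 of the gains, and leaving out untreated array 3 gave 8. A group left with 2 arrays was assumed to vary like the others. The array medians, 3.77 to 4.18, set the level below which sizes of change are uncertain.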
